A study of Mus musculus with 16 samples.

Results

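Cholesterol is made in the cytosol and endoplasmic reticulum, and the genes described here encode 4 enzymes of that route and 2 proteins that set its pace. They were taken from a list of 8 genes of sterol synthesis and its control: Hmgcs1, Idi1, Fdps, Fdft1, Sqle, Dhcr7, Srebf2 and Insig1. The table writes symbols in capitals (IDI1, FDPS, SQLE, DHCR7, SREBF2, INSIG1). The list was chosen by function, and 6 of the 8 genes had a row among the 18132 genes of the deposited table. Hmgcs1 and Fdft1 had no row under these symbols or their RefSeq synonyms and were not analysed here. No gene that takes up cholesterol is among the 6, so uptake was read from a wider list of sterol genes given further on.

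RNA of whole kidneys was measured on Illumina bead arrays, 1 array per kidney, in wild type (WT) and IL-33-deficient (KO) mice. IL-33-deficient mice carry a germline deficiency of Il33, not limited to a cell type, and had been backcrossed to C57BL/6J BomTac, while the labels call the WT mice C57/BL6. The methods give 8 weeks as the usual age, and the labels give no age or sex. Unilateral ureteral obstruction (UUO), the closing of one ureter with a clip under anaesthesia and with buprenorphine for pain, had lasted 24 h in 7 WT kidneys (3 of set 1 and 4 of set 2) and 5 IL-33-deficient kidneys (2 of set 1 and 3 of set 2). Control kidneys numbered 2 WT and 2 IL-33-deficient, and their labels give neither a set nor whether the mice had a sham operation. Sets are named in the labels without further description, and arrays are named by the number in their label. Values are log2 intensities of values whose lowest was 95.5 on the linear scale, which is background and not a true 0, and a level can be compared between kidneys for 1 gene but not between genes. Il33 itself followed the genotype labels, at 6.80 to 7.02 in IL-33-deficient kidneys after UUO against 8.39 to 9.57 in WT kidneys after UUO. One WT kidney, array 3820 of set 1, stood apart from the others after UUO in its injury genes: Havcr1, which encodes the tubular injury protein KIM-1, was at 10.42 there against 12.84 to 13.95 in the other 11 kidneys after UUO and 7.07 to 7.37 in controls.

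Sterol synthesis starts from acetyl-CoA, runs through mevalonate and the isoprenoids to squalene, and ends with the trimming of lanosterol to cholesterol. The transcription factor SREBP2, the product of Srebf2, is held in the endoplasmic reticulum by INSIG1 and its relatives while sterols are plentiful, and is cut and released to switch on the synthesis genes when sterols run low. In the kidney, tubule epithelium makes sterols and takes up filtered proteins and lipids. In RNA of a whole kidney, fewer cells of a type and less RNA per cell cannot be told apart.

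SREBP2 binds sterol response elements and works with NF-Y, which binds the CCAAT box. The stretch of 250 bases before the RefSeq start was therefore read for 4 of the 6 genes in the mouse assembly GRCm38.p6, to show where these letters lie in 2 genes that fell after UUO (Idi1 and Dhcr7) and 2 that did not pass the test (Srebf2 and Insig1). Sqle and Fdps had no entry in the RefSeq promoter table. The windows were chr13:8885356-8885605, plus strand (Idi1), chr7:143822917-143823166, plus strand (Dhcr7), chr15:82147019-82147268, plus strand (Srebf2) and chr5:28071162-28071411, plus strand (Insig1). Capitals mark CCAAT, CACNCCAC, TCACCCCA or CACGTG on either strand.
Idi1: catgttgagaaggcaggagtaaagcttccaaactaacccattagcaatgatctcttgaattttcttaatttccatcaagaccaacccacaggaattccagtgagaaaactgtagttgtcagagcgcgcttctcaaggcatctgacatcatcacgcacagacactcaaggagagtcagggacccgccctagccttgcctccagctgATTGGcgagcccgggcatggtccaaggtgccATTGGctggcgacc
Dhcr7: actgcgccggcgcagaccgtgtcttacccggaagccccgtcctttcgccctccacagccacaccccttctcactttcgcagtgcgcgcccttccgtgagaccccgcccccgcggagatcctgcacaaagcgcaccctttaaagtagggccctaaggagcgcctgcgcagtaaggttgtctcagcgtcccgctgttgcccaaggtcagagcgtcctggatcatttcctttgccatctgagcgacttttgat
Srebf2: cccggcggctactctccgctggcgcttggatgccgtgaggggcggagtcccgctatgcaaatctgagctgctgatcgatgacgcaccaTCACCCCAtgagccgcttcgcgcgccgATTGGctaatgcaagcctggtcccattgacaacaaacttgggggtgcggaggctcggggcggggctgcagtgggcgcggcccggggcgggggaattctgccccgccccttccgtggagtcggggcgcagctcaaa
Insig1: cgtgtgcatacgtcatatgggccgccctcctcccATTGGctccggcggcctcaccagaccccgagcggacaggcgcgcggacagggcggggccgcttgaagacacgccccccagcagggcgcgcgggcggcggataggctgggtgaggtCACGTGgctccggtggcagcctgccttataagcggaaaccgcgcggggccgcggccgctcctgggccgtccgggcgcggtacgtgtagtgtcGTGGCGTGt
The Idi1 window holds CCAAT on the reverse strand at 45 and 14 bases before the start. The Srebf2 window holds TCACCCCA at 162 bases and CCAAT at 135 bases before the start, and the Insig1 window holds CCAAT at 216, CACGTG at 101 and CACNCCAC at 9 bases before it. None of these letters was found in the Dhcr7 window. TCACCCCA was added to the search after the windows had been seen.

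3 more windows are shown for enzymes of the same route that moved most or against their neighbours: chr8:122443423-122443672, minus strand (Mvd), chr5:4104698-4104947, minus strand (Cyp51) and chr8:64733579-64733828, minus strand (Msmo1).
Mvd: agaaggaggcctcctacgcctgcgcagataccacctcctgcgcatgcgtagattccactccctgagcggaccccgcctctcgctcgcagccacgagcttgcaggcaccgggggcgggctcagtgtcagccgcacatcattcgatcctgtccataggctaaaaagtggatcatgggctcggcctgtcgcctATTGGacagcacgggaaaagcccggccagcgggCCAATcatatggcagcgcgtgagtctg
Cyp51: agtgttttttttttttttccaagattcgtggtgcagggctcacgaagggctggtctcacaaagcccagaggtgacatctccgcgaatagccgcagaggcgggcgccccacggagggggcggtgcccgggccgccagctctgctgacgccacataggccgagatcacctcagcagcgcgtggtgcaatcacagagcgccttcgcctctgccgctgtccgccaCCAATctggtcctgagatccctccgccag
Msmo1: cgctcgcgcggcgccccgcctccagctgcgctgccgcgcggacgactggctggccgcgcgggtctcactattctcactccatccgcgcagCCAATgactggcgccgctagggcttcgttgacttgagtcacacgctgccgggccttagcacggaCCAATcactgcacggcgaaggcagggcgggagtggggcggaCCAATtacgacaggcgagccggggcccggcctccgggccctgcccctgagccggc
Of the 15 synthesis genes with a window, 13 (86.7%) held CCAAT, against 34.5% of all 27025 windows of this length. CACNCCAC was in 1 of the 15 (6.67%) and in 5.15% of all windows, and CACGTG was in 2 (13.3%) and in 6.04%. TCACNCCAC, which contains CACNCCAC, was in none of the 15 and in 1.03% of all windows, and TCACCCCA was in none of the 15 and in 1.26%. CCAAT was in the window of Msmo1, which rose after UUO in both genotypes, in 5 of the 7 genes that fell in both and in all 6 that passed the test in neither.

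After 24 h of UUO, 2 of the 6 genes rose and 2 fell in both genotypes. Sqle and Fdps rose, Idi1 and Dhcr7 fell, and the 2 control genes, Srebf2 and Insig1, did not pass the test. In WT kidneys 4 of the 6 genes passed an adjusted p of 0.05 in limma, against 15.2% of all genes (6.97% higher and 8.22% lower). In IL-33-deficient kidneys 4 of the 6 passed, against 21.8% of all genes (10.6% higher and 11.2% lower). The median difference over the 6 genes was 0.00 in WT and 0.12 in IL-33-deficient kidneys on the log2 scale, against 0.00 over all genes in both.

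Sqle encodes squalene epoxidase, which makes the first oxygen-bearing intermediate after squalene and is one of the slow steps of the route. In controls its log2 intensity was 9.63 and 9.51 in the WT and 9.37 and 9.38 in the IL-33-deficient kidneys. After UUO it was 10.13, 10.77 and 10.31 in WT set 1 and 10.48, 10.53, 10.17 and 10.43 in WT set 2. In IL-33-deficient kidneys after UUO it was 10.55 and 10.55 in set 1 and 10.72, 10.51 and 10.59 in set 2. Every kidney after UUO lay above every control, with WT array 3819 highest and WT array 3818 lowest among the obstructed kidneys. Sqle was 1.78-fold higher after UUO in WT kidneys (log2 difference 0.83, SE 0.12, limma adjusted p = 0.0006) and 2.32-fold higher in IL-33-deficient kidneys (1.21, SE 0.13, limma adjusted p = 2.2e-05).

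Fdps encodes farnesyl diphosphate synthase, whose product feeds sterols, dolichol and the lipid tails of small GTPases. Its log2 intensity was 9.30 and 8.95 in WT controls and 9.35 and 9.33 in IL-33-deficient controls. After UUO it was 9.73, 10.31 and 9.56 in WT set 1 and 10.02, 9.83, 9.60 and 9.76 in WT set 2. In IL-33-deficient kidneys after UUO it was 9.90 and 9.91 in set 1 and 10.24, 10.13 and 9.87 in set 2. The obstructed kidneys again lay above all controls, and array 3819 was again the highest, while WT control 3812 was the lowest of the 16 kidneys. Fdps was 1.63-fold higher in WT (log2 difference 0.70, SE 0.16, limma adjusted p = 0.00841) and 1.59-fold higher in IL-33-deficient kidneys (0.67, SE 0.17, limma adjusted p = 0.0093). The WT call rested on control 3812: without it the difference was 0.53 and the limma adjusted p = 0.184.

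Idi1 encodes isopentenyl diphosphate isomerase, which acts just before Fdps and makes one of its substrates. Idi1 and Dhcr7 were dim, with linear intensities of 119 to 167 and 123 to 174 over the 16 kidneys. Idi1 was at 7.29 and 7.28 in WT controls and at 7.25 and 7.38 in IL-33-deficient controls. After UUO its lowest, median and highest values were 6.90, 7.0 and 7.12 in WT kidneys. Among the obstructed IL-33-deficient kidneys, set 1 gave 7.04 on both arrays and set 2 gave 7.04, 7.08 and 7.15. All obstructed kidneys were below all controls, by a small step. Idi1 fell by 0.27 on the log2 scale in WT (SE 0.05, limma adjusted p = 0.00313) and fell by 0.24 in IL-33-deficient kidneys (SE 0.06, limma adjusted p = 0.00463).

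Dhcr7 encodes the reductase that turns 7-dehydrocholesterol, the precursor of vitamin D, into cholesterol. It was at 7.29 and 7.31 in WT controls and at 7.43 in both IL-33-deficient controls. After UUO its lowest, median and highest values were 6.98, 7.10 and 7.17 in WT kidneys. Among the obstructed IL-33-deficient kidneys, set 1 gave 7.22 and 6.94 and set 2 gave 7.12, 7.25 and 7.19. No obstructed kidney reached the level of a control, and the IL-33-deficient controls were the highest of the 16. Dhcr7 fell by 0.22 in WT (SE 0.07, limma adjusted p = 0.0386) and fell by 0.29 in IL-33-deficient kidneys (SE 0.07, limma adjusted p = 0.00804). With the lowest intensity of each array subtracted before the log, the WT difference was -0.34 for Dhcr7 and -0.41 for Idi1, so the size of both changes depends on the background taken. The WT call of Dhcr7 was lost without any one of arrays 3811, 3812, 3892, 3894 and 3895 (limma adjusted p = 0.0593 to 0.239).

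Srebf2 and Insig1 did not pass the test in either genotype. Srebf2 was at 8.57 and 8.44 in WT controls and at 8.03 and 8.22 in IL-33-deficient controls, and after UUO its lowest, median and highest WT values were 8.26, 8.51 and 8.65. In IL-33-deficient kidneys after UUO Srebf2 gave 8.60 and 8.54 (set 1) and 8.52, 8.39 and 8.16 (set 2). The lowest of the 16 kidneys were the IL-33-deficient controls and array 3899, and all groups after UUO overlapped with their controls. The difference after UUO was -0.02 in WT (95% interval -0.26 to 0.22, limma adjusted p = 0.953) and 0.32 in IL-33-deficient kidneys (0.06 to 0.57, limma adjusted p = 0.0723). In IL-33-deficient kidneys Srebf2 passed without array 3899, where the difference was 0.39 (limma adjusted p = 0.0137), with set 1 UUO arrays alone (0.45, limma adjusted p = 0.0196) and with the brighter genes alone (0.32, limma adjusted p = 0.0438).

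Insig1, itself a target of SREBP2 in many cells, was at 7.63 and 7.48 in WT controls and 7.67 and 7.59 in IL-33-deficient controls. After UUO its lowest, median and highest WT values were 7.33, 7.59 and 8.01, and the IL-33-deficient kidneys gave 7.44 and 7.59 (set 1) and 7.69, 7.61 and 7.37 (set 2). Array 3820 was above all other kidneys and the rest overlapped. The difference after UUO was 0.03 in WT (95% interval -0.24 to 0.30, limma adjusted p = 0.936) and -0.09 in IL-33-deficient kidneys (-0.38 to 0.19, limma adjusted p = 0.735).

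**Figure D1:**
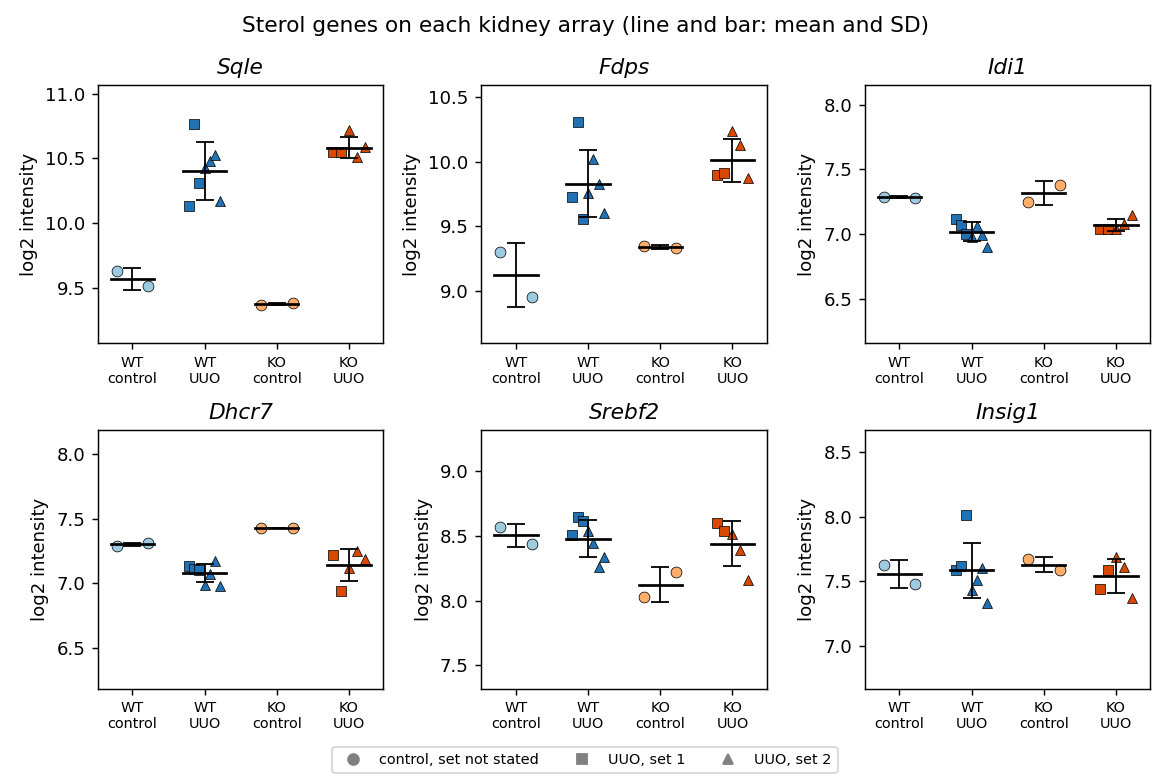
Log2 intensity (vertical axis, each panel spanning the same range) of the 6 genes on each of the 16 arrays, by group, with circles for controls, squares for UUO set 1 and triangles for UUO set 2. Horizontal lines and bars give the group mean and SD, and the obstructed kidneys lie above the controls for Sqle and Fdps, below them for Idi1 and Dhcr7, and among them for Srebf2 in WT and Insig1 in both genotypes.

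In exact two-sided permutation tests of the difference of means, Sqle, Fdps, Idi1 and Dhcr7 each gave p = 0.0278 in WT and p = 0.0476 in IL-33-deficient kidneys, the smallest values that 7 against 2 and 5 against 2 arrays can give. Groups that do not overlap were common, at 21.4% of all genes in WT and 35% in IL-33-deficient kidneys. Once groups do not overlap, the exact p-values are set by the numbers of arrays alone. The limma p-values use a spread between kidneys pooled over the 4 groups, which comes mostly from obstructed kidneys. Only 2 controls stand behind each response. With the UUO arrays of set 1 alone, none of the 6 genes passed in WT, where 188 of all genes did, and Sqle was at 0.83 (limma adjusted p = 0.0683). Without array 3820 the WT differences were 0.85 for Sqle, 0.75 for Fdps, -0.27 for Idi1, -0.23 for Dhcr7, -0.04 for Srebf2 and -0.04 for Insig1, and the first 4 of these passed.

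In the wider route, too, some enzymes rose and others fell. A list of 46 further sterol genes, chosen by function, had 42 with a row, and Mvk was among the 4 not analysed here. With the 4 enzymes above, 18 synthesis genes were measured, of which 3 rose and 8 fell in WT and 3 rose and 7 fell in IL-33-deficient kidneys. Of all genes, 6.97% rose and 8.22% fell in WT and 10.6% rose and 11.2% fell in IL-33-deficient kidneys. The 18 genes' median difference was -0.12 in WT and -0.25 in IL-33-deficient kidneys, against 0.00 over all genes. The third gene that rose with Sqle and Fdps was Msmo1, the sterol methyl oxidase that removes methyl groups from lanosterol products. Msmo1 was at 9.56 and 9.09 in WT controls and 9.60 to 10.42 in WT kidneys after UUO, and at 9.56 and 9.35 against 9.92 to 10.32 in IL-33-deficient kidneys. Neither genotype's groups overlapped, and the differences were 0.66 (SE 0.17, limma adjusted p = 0.0148) and 0.64 (SE 0.17, limma adjusted p = 0.0146).

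The largest falls among the synthesis genes were in Mvd and Cyp51. Mvd encodes mevalonate diphosphate decarboxylase, the step before Idi1, and was at 8.89 and 9.05 in WT controls against 7.69 to 8.61 after UUO. The highest obstructed WT kidney was array 3820. In IL-33-deficient kidneys Mvd was at 9.21 and 9.10 against 7.59 to 8.16. Mvd fell by 0.91 in WT (SE 0.18, limma adjusted p = 0.00383) and fell by 1.34 in IL-33-deficient kidneys (SE 0.19, limma adjusted p = 0.00017). Cyp51 encodes lanosterol demethylase, which precedes Msmo1, and was at 9.97 in both WT controls against 8.64 to 9.86 after UUO. The highest obstructed kidney was again 3820, and the next WT value was 9.0. Cyp51 fell by 0.96 in WT (SE 0.22, limma adjusted p = 0.00816) and fell by 1.11 in IL-33-deficient kidneys (SE 0.23, limma adjusted p = 0.00239). Acat2, which joins acetyl-CoA units at the start, fell by 0.55 in WT and fell by 0.90 in IL-33-deficient kidneys (limma adjusted p = 0.0449 and 0.00209), and Ebp, a late sterol isomerase, fell by 0.61 and fell by 0.48 (limma adjusted p = 0.00664 and 0.0228). Lbr, a sterol reductase that also anchors chromatin at the nuclear envelope, fell by 0.31 and fell by 0.40 (limma adjusted p = 0.0427 and 0.0102), and Tm7sf2, the other enzyme of that step, fell by 0.24 in WT and was at -0.12 in IL-33-deficient kidneys (limma adjusted p = 0.0166 and 0.222). In the order of the route, Fdps and Sqle, which rose, follow Mvd and Idi1, which fell, and Msmo1, which rose, stands between Cyp51 and Ebp, which fell.

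**Figure D2:**
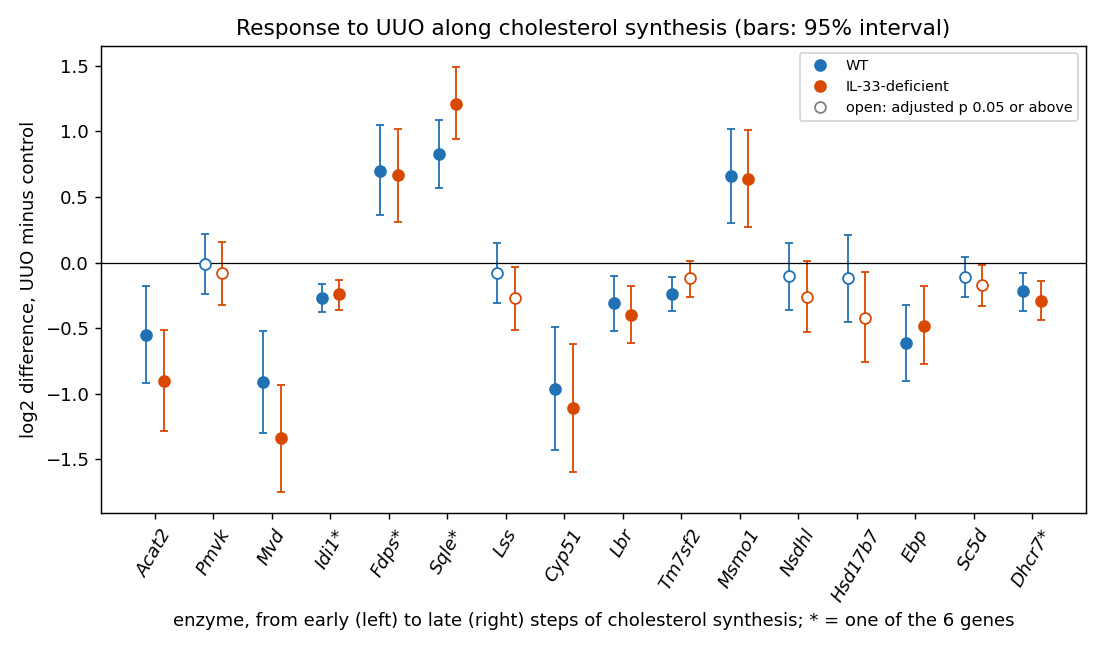
Log2 difference of UUO minus control (vertical axis) in WT (blue) and IL-33-deficient (orange) kidneys for 16 of the 18 synthesis genes in the order of their step. Bars are 95% intervals and open symbols did not pass an adjusted p of 0.05; Sqle, Fdps and Msmo1 lie above 0 and Mvd, Cyp51, Acat2 and Ebp below it in both genotypes.

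Outside synthesis, Trib3 rose and Acss2 and Nr1h3 fell in both genotypes. Of 7 control genes of the wider list, Trib3 rose in both genotypes, by 0.96 in WT (limma adjusted p = 0.0349) and 1.12 in IL-33-deficient kidneys (limma adjusted p = 0.0134). Trib3 encodes a pseudokinase of the stress response and is not specific to sterols. Stard4, a sterol carrier, was at -0.66 in WT (limma adjusted p = 0.0669) and fell by 0.69 in IL-33-deficient kidneys (limma adjusted p = 0.0486). Of 7 uptake genes, none passed in WT and 1 in IL-33-deficient kidneys, Vldlr, which fell by 0.27 (limma adjusted p = 0.0442). Of 7 genes of efflux, storage and liver X receptors, Nr1h3, which encodes the sterol sensor LXR-alpha, fell by 0.23 in WT (limma adjusted p = 0.0461) and fell by 0.53 in IL-33-deficient kidneys (limma adjusted p = 0.00017). Of 7 genes of fatty acid synthesis, Acss2, which makes acetyl-CoA from acetate, fell by 1.46 and fell by 1.69 (limma adjusted p = 0.00388 and 0.00103), from 11.13 and 10.99 in WT controls to 9.11 to 10.59 after UUO, with array 3820 highest. Over the 42 genes, 2 rose and 8 fell in WT, where 6.97% of all genes rose and 8.22% fell, and 2 rose and 9 fell in IL-33-deficient kidneys, where 10.6% rose and 11.2% fell. These calls rest on few controls: leaving out either control of a genotype leaves 1, and fewer genes then passed, among the 42 and among all genes alike. In WT 6 of the 42 genes passed without any one of UUO arrays 3892, 3894 and 3895. Of all genes 2338, 2426 and 2308 passed without these arrays in turn, against 2754 with all arrays.

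Markers of tubule and other cells moved in the same kidneys. The summed linear intensity of 7 proximal tubule markers was 60348 to 61054 in WT controls and 27215 to 53134 in WT kidneys after UUO, and 64071 to 65915 against 19142 to 33254 in IL-33-deficient kidneys. In limma 1 of the 7 fell in WT, where 8.22% of all genes did, and 5 of the 7 in IL-33-deficient kidneys, where 11.2% did. The sum of 3 myofibroblast markers was 1238 to 1615 in WT controls and 1551 to 2348 after UUO, and 1134 to 1194 against 2813 to 3064 in IL-33-deficient kidneys, and all 3 rose in both genotypes, against 6.97% of all genes in WT and 10.6% in IL-33-deficient kidneys. The sum of 5 leukocyte markers was 1006 to 1067 against 954 to 1986 in WT and 861 to 939 against 1414 to 1950 in IL-33-deficient kidneys, with 1 and 2 of the 5 higher. Cd68 rose in both genotypes and Lyz2 in IL-33-deficient kidneys alone. Lyz2, at 369 to 1335, gave the largest part of the sum. Ptprc, Itgam and Cd3e were dim, at 108 to 142, and passed in neither genotype, so the sum does not show a rise of leukocytes in general. Of 3 thick limb and distal tubule markers 2 fell in WT and 1 in IL-33-deficient kidneys, of 3 collecting duct markers 2 in each, and of 2 podocyte markers 1 in each. The liver marker Alb, at 104 to 121 in every group, was near background, and no adipocyte or endothelial marker passed. The sum of 3 adipocyte markers was 364 to 369 against 348 to 830 in WT and 361 to 367 against 355 to 713 in IL-33-deficient kidneys. Among these markers Cfd reached 9.20 in WT (median 7.09) and 8.79 in IL-33-deficient kidneys (median 7.02) after UUO. Adipoq and Plin1 reached at most 7.24 and 6.90. The part of these cells in the changes of the sterol genes was not tested.

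No sterol gene passed the test between genotypes. In controls none of the 6 genes passed, and 0% of all genes did (664 at an unadjusted p under 0.05). Il33 itself, at -0.95, did not pass there either, so a missing call in controls does not show equal levels. The difference of IL-33-deficient minus WT controls was -0.20 for Sqle (95% interval -0.53 to 0.13), 0.22 for Fdps (-0.21 to 0.65) and 0.13 for Dhcr7 (-0.05 to 0.31). Srebf2 had the widest gap, at -0.38 (-0.68 to -0.08, unadjusted p = 0.0175 and limma adjusted p = 1), with both IL-33-deficient controls below both WT controls. Control groups that did not overlap, in either direction, were seen in 34% of all genes, and 2 against 2 arrays cannot give an exact permutation p below 0.333.

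After UUO the threshold given in the paper's results was applied (fold above 1.3 with p under 0.05 before and under 0.25 after adjustment). The paper used fewer WT kidneys for its comparison than the 7 used here, so its counts are not set beside these. None of the 6 genes passed it, and 0.011% of all genes did (0.00552% in each direction). At an adjusted p of 0.05 none of the 6 and 0.00552% of all genes passed. IL-33-deficient minus WT kidneys differed by 0.18 for Sqle (95% interval -0.03 to 0.39, limma adjusted p = 0.556) and by 0.18 for Fdps (-0.08 to 0.44, limma adjusted p = 0.655). The exact two-sided permutation p was 0.112 for Sqle and 0.203 for Fdps, where the smallest possible was 0.00126. Within the sets Sqle differed by 0.15 in set 1 and 0.20 in set 2, and Fdps by 0.04 and 0.28. Idi1 differed by 0.05 (-0.03 to 0.14) and Dhcr7 by 0.06 (-0.05 to 0.18), and both were slightly below 0 in set 1, at -0.02 and -0.03. Srebf2 differed by -0.04 (-0.23 to 0.14) and Insig1 by -0.04 (-0.26 to 0.17). All 6 genes overlapped between the genotypes, so none separated them at this number of kidneys. Groups that did not overlap were rare here, at 0.756% of all genes, so the overlap does not set the 6 genes apart. Within set 1 Insig1 differed by -0.22 (exact two-sided permutation p = 0.4), with the closest kidneys at 7.59 in both genotypes. In the deposited intensities these kidneys were at 193.3 (IL-33-deficient array 3822) and 192.3 (WT array 3818), so set 1 did not clearly separate the genotypes. In set 2 Insig1 overlapped, with a difference of 0.09.

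The response to UUO itself was compared between genotypes as an interaction, which shares its arrays with the comparisons above. None of the 6 genes passed, and 0% of all genes did (860 at an unadjusted p under 0.05). Il33 itself, with a difference in response of -1.41, did not pass either, so a missing call does not show equal responses. The rise of Sqle was larger by 0.38 in IL-33-deficient than in WT kidneys (95% interval 0.00 to 0.76, unadjusted p = 0.0489, limma adjusted p = 0.973), with a gap between the genotypes of -0.20 in controls and of 0.18 after UUO. For Srebf2 the difference in response was 0.34 (-0.01 to 0.68, limma adjusted p = 0.973), with a gap of -0.38 between the control groups and of -0.04 after UUO. For Fdps it was -0.04 (-0.53 to 0.46), for Idi1 0.03 (-0.14 to 0.19), for Dhcr7 -0.06 (-0.27 to 0.14) and for Insig1 -0.12 (-0.51 to 0.27).

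**Figure D3:**
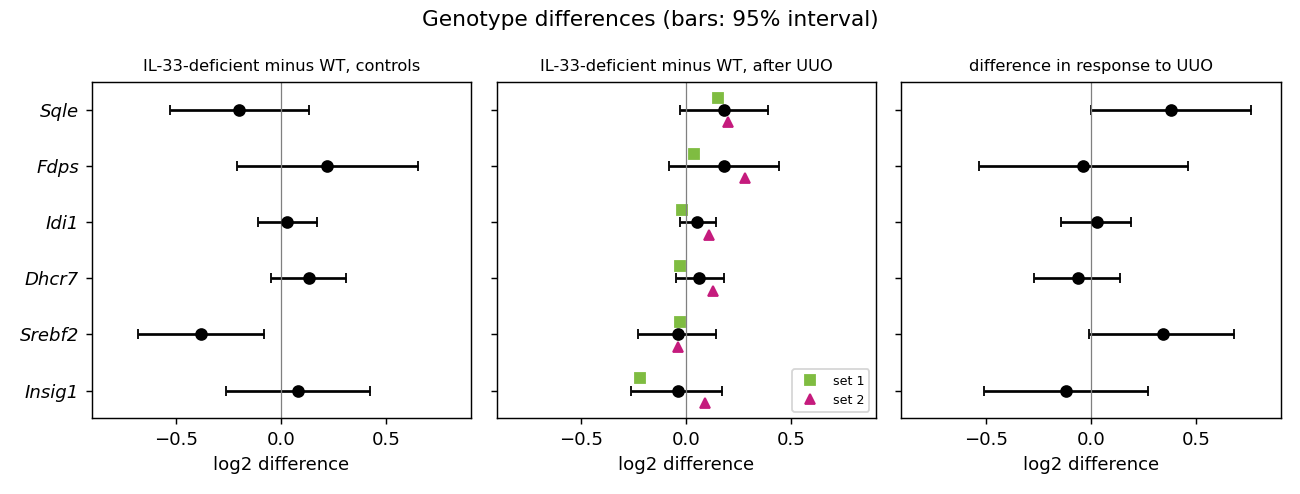
Log2 differences between genotypes (horizontal axes) for the 6 genes in controls, after UUO and in the response to UUO, with 95% intervals as bars and the values within set 1 (squares) and set 2 (triangles) in the middle panel. All intervals after UUO include 0, and Sqle and Fdps have the highest estimates there, at 0.18 each.

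Sqle and Fdps varied together among the obstructed kidneys. Over the 12 kidneys after UUO, Pearson's r was 0.83 (permutation p = 0.00106, adjusted p = 0.0159 over 15 pairs of the 6 genes) and Spearman's rho was 0.78 (permutation p = 0.00397, adjusted p = 0.0595). Arrays 3819 and 3897 were high in both genes and arrays 3818, 3820 and 3894 were low in both. Without the 2 kidneys farthest from the median r was 0.69 (n = 10), within the 7 WT kidneys r was 0.85 and within the 7 kidneys of set 2 it was 0.80, while no r was computed for set 1, which held 5 kidneys. For the other 14 pairs the adjusted permutation p of Pearson's r was 0.491 or higher, and Sqle and Srebf2 had r = 0.09. The share of all genes that follow Sqle this closely was not computed. Over the 16 arrays, after the group means were removed, r with Sqle was 0.84 for the stress cytokine gene Gdf15 and 0.80 for Icam1. The pair is therefore not shown to be particular to sterol genes.

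**Figure D4:**
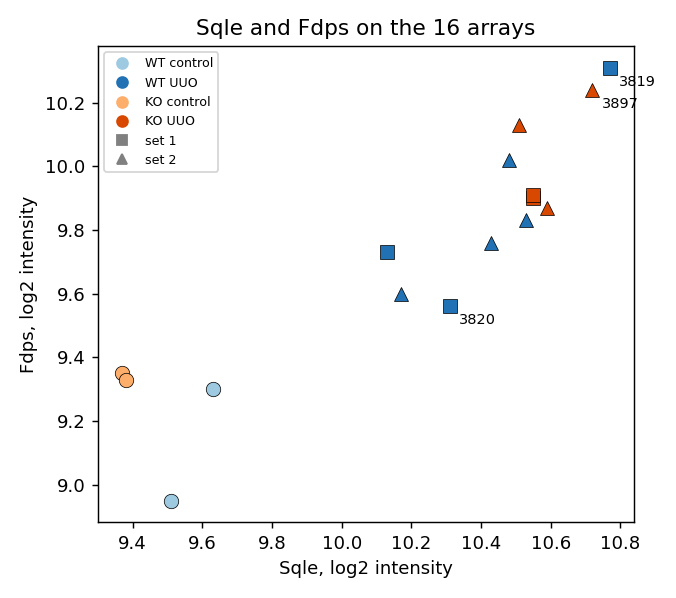
Log2 intensity of Fdps (vertical axis) against Sqle (horizontal axis) on the 16 arrays, coloured by group, with circles for controls, squares for set 1 and triangles for set 2. The 4 controls sit at the lower left, and the obstructed kidneys run upwards from arrays 3818, 3820 and 3894 to arrays 3897 and 3819.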

How the data were processed

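Kidney RNA was hybridised to the Illumina MouseRef-8 v2 BeadChip, read with BeadStudio 2 per the submitters' processing notes, and imported by the authors with the beadarray package. The authors deposited linear intensity values, 1 per gene, for 18132 genes on 16 arrays, from 95.5 to 23471, with array medians of 132 to 133. Background correction, normalization and the joining of probes are not given in the sources used here. Precision is limited by how many arrays each group has. The lowest intensity is background and not a true 0, which compresses fold changes of dim genes. All columns of values were used.

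The deposited intensities were quantile-normalized and taken to log2. lmFit and eBayes of limma 3.58.1 (R 4.3.3) were fitted to all 16 arrays in 4 groups for the responses to UUO, the interaction and the controls, and to the 12 UUO arrays for the genotypes after UUO, with Benjamini-Hochberg adjustment over all genes. Exact two-sided permutation tests (36 in all) and correlation tests (100000 resamples) were run in Python 3.11.15 (scipy 1.17.1, numpy 2.4.6, pandas 2.3.3), with plots from matplotlib 3.10.9. On simulated data with 200 genes changed by a log2 of 1, the fits recovered 97.5% (UUO in WT), 96% (UUO in KO), 93% (interaction), 93.5% (controls) and 100% (genotypes after UUO). Among the 6 genes only Sqle in IL-33-deficient kidneys changed by more than that after UUO (1.21). In the wider sterol list Acss2 did so in WT (-1.46) and in IL-33-deficient kidneys (-1.69). Mvd (-1.34), Cyp51 (-1.11) and Trib3 (1.12) did so in IL-33-deficient kidneys. In the real data Il33 itself did not pass in controls (-0.95) or in the interaction (-1.41). The recovered shares therefore describe the simulated data and not the power of the real comparisons. Promoter windows came from the RefSeq table of GRCm38.p6.

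The genes and lists were chosen with earlier results of these data known. Named genes were the 8 listed genes, genes of the sterol list called in a comparison (at most 10 per comparison, by smallest p), Il33, Havcr1 and Lcn2, and the 8 genes whose levels over the 16 arrays correlated best with the mean of the 6. Stard4, Mvk, Alb and the genes most like Sqle were named outside that rule, after their values were seen. Alternatives were the deposited values without quantile normalization, median centring, background subtraction (50 added back), brighter genes alone, a variance trend, array weights, each set of mice, set as a block, 4 groups in one model and leaving out each array. Some items are not reported here.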

Additional observations from a re-analysis of the deposited data

Results flagged for a closer look

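Insig1 in WT kidney 3820 after UUO was at 8.01, and its gap to the next kidney was 0.574 of the group's range, over the critical 0.568 for 7 samples. It was the only such value in 12 groups of arrays searched over the 6 genes. Chance gives about 1 in 20 for each group searched, so 1 such value among 12 groups is not unusual. The same kidney had the lowest injury genes after UUO, with Havcr1 at 10.42 and Lcn2, another tubular injury gene, at 11.81, against 12.84 to 13.95 and 12.79 to 13.70 in the other 11. Whether that bears on Insig1 was not tested.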

How the results depend on the processing

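The directions of Sqle, Fdps, Idi1 and Dhcr7 after UUO held in both genotypes under all alternatives run. With UUO arrays of set 1 alone, 0 of the 6 genes and 0 of the 42 sterol genes passed in WT, and 4 of the 6 (Sqle, Idi1, Dhcr7 and Srebf2) and 6 of the 42 in IL-33-deficient kidneys. Leaving out 1 array gave 2 to 4 of the 6 in WT (2 without control 3812) and 1 to 5 in IL-33-deficient kidneys (2 without control 3813, 1 without control 3814), and 1 to 14 (1 without control 3812) and 5 to 10 (5 without control 3813) of the 42. Counts over all genes were 188 in WT set 1, 4241 in set 2 and 809 to 3578 with 1 array left out (main 2754), and 2258 and 2276 to 3798 in IL-33-deficient kidneys (main 3955). Between genotypes after UUO they were 2 in the main analysis, 168 with brighter genes, 80 with array weights, 1 with set as a block, 0 in set 1, 81 in set 2, 127 with 4 groups and 1 to 309 with 1 array left out, and none of the 6 genes passed in any of these. The interaction gave 2 genes in set 2 and 0 to 1 with 1 array left out. Signs that turned were all in differences that had not passed. For Insig1 in WT these were -0.02 (array weights), -0.09 (set 2) and -0.05 to 0.11 with 1 array left out, and for Srebf2 in WT 0.09 (set 1) and -0.09 to 0.05. In the interaction they were 0.00 for Dhcr7, 0.06 for Fdps and 0.01 for Insig1 (set 2), -0.05 for Idi1 (set 1), and -0.21 to 0.13 for Fdps and -0.04 to 0.09 for Idi1 with 1 array left out. In controls Idi1 ran from -0.04 to 0.09 and Insig1 from 0.00 to 0.16. Between genotypes after UUO they were -0.03 for Dhcr7 and -0.02 for Idi1 (set 1), 0.01 (array weights) and 0.09 (set 2) for Insig1, and -0.09 to 0.03 for Insig1 and -0.08 to 0.03 for Srebf2 with 1 array left out. Fdps in IL-33-deficient kidneys lost its call without control 3813 or 3814 and in set 1 (limma adjusted p = 0.0704, 0.075 and 0.175), Dhcr7 without either control (0.0661 each) and Idi1 without 3814 (0.113). The cause was not tested. No paired analysis was possible because no 2 groups share a number in their labels.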

Other observations

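The genes whose levels were most like the mean of the 6 sterol genes over the 16 arrays were Prg2 (Pearson's r 0.841, and 0.75 after the 4 group means were removed), Zfp280c (0.812 and 0.75), Bola1 (0.789 and 0.82), Slc35a2 (0.764 and 0.71), Try10 (0.764 and 0.77), 1200014M14Rik (0.761 and 0.75), 1200013B08Rik (0.742 and 0.79) and Deaf1 (0.731 and 0.56). None of them is an enzyme of sterol synthesis by name, and the mean joins genes that rose with genes that fell. Levels most like those of Sqle alone, a comparison added after the values were seen, belonged to Zyx, a focal adhesion protein (0.975 and 0.77), LOC100047619 (0.97 and 0.73), Icam1, a leukocyte adhesion molecule (0.97 and 0.80), Vwa5a (0.969 and 0.63) and Gdf15, a stress cytokine (0.967 and 0.84). The points share the arrays, the treatment and the normalization.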
